A study of Cricetulus griseus with 5 samples.

Results

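Interleukins, chemokines and their receptors were examined on 5 two-colour arrays that carried RNA of the A23 hamster cell line in both channels. A probe, here a numbered array feature, was taken where the platform's annotation gave it exactly 1 gene symbol and that symbol began with Il and a digit, Ccl or Cxcl and a digit, Ccr and digits alone, or Cxcr and a digit. The rule used names only and gave 123 of 20868 probes, for 120 of 16504 named genes. Of these probes, 69 were for ligands (37 interleukin and 32 chemokine), 53 were for receptors (38 and 15) and 1 was for Il18bp, a soluble protein that binds interleukin 18. The genes Il6st, Il10rb and Il2ra had more than 1 probe each. The annotation names mouse genes, and how well the hamster RNA binds each probe was not tested.

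A23 is a fibroblast line of the Chinese hamster that lacks thymidine kinase and serves as a recipient in radiation hybrid panels. Per the labels, untreated cultures were harvested with trypsin and the same kind of RNA was labelled with Cy5 for channel 1 and Cy3 for channel 2, always this way round. All arrays form 1 group, replicates 1 to 5, and the labels do not say whether they came from separate cultures, so the p-values cover the scatter of these hybridisations alone, and that scatter may be technical. The series' design text gives the arrays as controls for the power to find cis ceQTLs, changes in a gene's expression that go with extra copies of its own locus.

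Interleukins are secreted proteins through which mainly immune cells signal, and most act through receptors made of a specific chain and a chain shared with other interleukins. Class I and II receptors signal through JAK kinases and STAT factors, and the interleukin 1 and 17 families through adaptors that lead to NF-kappaB. Chemokines are small secreted attractants, named Ccl or Cxcl by the spacing of their first cysteines, and they bind G protein-coupled receptors. Fibroblasts are a known source of interleukin 6, interleukin 11, Ccl2, Cxcl1 and Cxcl12, while interleukins 2, 3, 4 and 5 and most chemokine receptors are known mainly from leukocytes.

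Each value below is a deposited log ratio of the channels, centred at a median of 0 on each array. The base of the logarithm and the channel in the numerator are not stated in the sources used here. Folds are therefore given for a log10 and a log2 reading, and the sign is that of the deposited value. The table holds no intensity, so a ratio says nothing on how strongly a gene was expressed, and levels of cytokines or of cell type markers in A23 cells cannot be read from it. Over all probes, 6.43% to 20.8% of an array's values were exactly 0, and the SD within an array ran from 0.119 to 0.174, the latter on replicate 2. The number of arrays limits the precision of every value.

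With RNA of 1 cell line on both sides, the ratio implied by the design is 0, and most cytokine and receptor probes were not separable from it. As the dyes were never swapped, a steady ratio other than 0 cannot be told apart from a dye effect of the probe. In limma's moderated test, adjusted with the Benjamini-Hochberg method over all 20868 probes, 3 of the 123 probes passed an adjusted p of 0.05, against 3.42% of all probes. The members' own share was 2.44%. Interleukin 3 (Il3) and the interleukin 27 receptor gene Il27ra were negative, and interleukin 6 (Il6) was positive. Of all probes, 1.41% passed above 0 and 2% below 0. At an unadjusted p of 0.05 the members numbered 20, or 16.3%, against 27.3% of all probes. Positive and negative means were equally frequent, at 58 probes each, and 7 probes stood at 0 on every array. Median ratios were 0 for ligands and -0.00348 for receptors, beside 0.00187 over all probes.

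Il3, a growth factor of blood progenitors and mast cells made chiefly by activated T cells, departed far more than any other member. Its probe (feature 19089) was listed at -0.975, -1.13, -1.28, -1.32 and -1.17 on replicates 1 to 5. Every array was strongly negative, and the array closest to 0 was still far below the lowest mean of any other member, -0.215 for Cxcr3. The mean was -1.18 ± 0.135 (SD, n = 5), or 15-fold under the log10 reading and 2.26-fold under the log2 reading (limma adjusted p = 0.00696). Of all 20868 probes, 5 had a lower mean. The size held when each array was left out, between -1.23 and -1.14, but the adjusted p was 0.0654 without replicate 2, 0.0666 without replicate 3 and 0.0603 without replicate 4. Over all 20868 probes, 713 passed with 5 arrays and 4, 5 and 8 without replicates 2, 3 and 4.

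Il6, which drives the acute-phase response and is secreted by stimulated fibroblasts, was the positive call. Its ratios were 0.102, 0.151, 0.102, 0.103 and 0.195 on replicates 1 to 5. Replicates 1, 3 and 4 were nearly equal, and replicates 2 and 5 were higher. The mean was 0.131 ± 0.042 (SD, n = 5), or 1.35-fold read as log10 and 1.09-fold read as log2 (limma adjusted p = 0.0437). With any array left out the call was lost, at limma adjusted p-values of 0.0691 to 0.138, while the mean stayed between 0.114 and 0.138. Calls over all 20868 probes fell as well, from 713 to between 4 and 63.

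Il27ra encodes the specific chain of the interleukin 27 receptor on lymphocytes. Its ratios were -0.0805, -0.0379, -0.0626, -0.0924 and -0.103, all negative, with replicate 2 closest to 0. The mean was -0.0753 ± 0.0258 (SD, n = 5), 1.19-fold if log10 and 1.05-fold if log2, and its limma adjusted p of 0.0497 was just under the threshold. This call, too, was lost with any array left out (limma adjusted p 0.0873 to 0.151), where at most 63 of all 20868 probes passed.

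Among the 37 interleukin ligand probes, 18 means were positive, 16 negative and 3 exactly 0. After Il3, the lowest were Il5, the eosinophil growth factor, at -0.145 ± 0.161 (SD, n = 5), and Il15, which sustains natural killer cells, at -0.115 ± 0.0954 and negative on every array. Il5 was at 0 on replicates 3 and 5 and at -0.391 on replicate 2, so its mean was smaller than its spread. Il2, the T cell growth factor, was negative on every array, from -0.165 on replicate 3 to -0.0316 on replicate 1, with a mean of -0.0975 ± 0.0564 (limma adjusted p = 0.0855). Il10, an anti-inflammatory cytokine, was also negative on every array, at -0.0724 ± 0.0466 (limma adjusted p = 0.103).

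On the positive side, Il1f5, an antagonist at the interleukin 36 receptor, had the highest mean, 0.146 ± 0.191 (SD, n = 5), with replicate 1 at -0.154. Il1f10, another member of the interleukin 1 family, had 0.116 ± 0.156 and a negative replicate 4. Il4, which directs type 2 responses, had 0.157, 0.213, 0.117, 0.0928 and 0, positive wherever it was not listed at 0 (limma adjusted p = 0.108). Il27, the subunit paired with Ebi3 in interleukin 27, was positive on every array between 0.0298 and 0.0789, with a mean of 0.0493 ± 0.0194 (limma adjusted p = 0.0662). Il25 and Il34, the latter a ligand of the Csf1 receptor, were positive on every array with spreads of about the size of their means, 0.0426 ± 0.0432 and 0.0833 ± 0.0868, and Il34 is named for its sign after its values were seen. Il1b, a main inflammatory cytokine, was nearly the same in both channels, at -0.00377 ± 0.0076, with its farthest array at -0.0152.

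None of the 32 chemokine ligand probes passed in limma, where 6 (18.8%) had an unadjusted p under 0.05, against 3.42% and 27.3% of all probes. Positive means numbered 15, negative 14 and exact zeros 3. The highest means came with wide spreads. Cxcl17, a mucosal chemokine, was listed at 0, 0.224, 0.859, 0.251 and 0.219, with replicate 3 far above the rest, and had a mean of 0.311 ± 0.323 (SD, n = 5). Ccl25, which draws T cells to gut and thymus, was at 0 on replicates 1 and 2 and at 0.715, 0.384 and 0.223 on the others (mean 0.264 ± 0.299). Cxcl2, a neutrophil attractant, reached 0.651 on replicate 2 and was negative on replicates 3 and 5 (mean 0.193 ± 0.294). Ccl1 was positive on every array, from 0.0215 on replicate 1 to 0.406 on replicate 3, with a mean of 0.188 ± 0.139 (limma adjusted p = 0.119).

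Several chemokines with small means had small spreads, though others with small means did not, such as Cxcl15 at 0.0208 ± 0.167 and Cxcl9 at -0.00214 ± 0.14. Ccl28 and Ccl27a, both ligands of Ccr10 on skin and mucosal lymphocytes, were positive on every array, at 0.0757 ± 0.0389 (limma adjusted p = 0.0754) and 0.0918 ± 0.0502 (limma adjusted p = 0.0788). Cxcl12, the ligand of Cxcr4 that stromal cells secrete, gave -0.0329, -0.0202, -0.0404, -0.0351 and -0.0603. All its arrays were negative within a narrow range, and the mean was -0.0378 ± 0.0146 (limma adjusted p = 0.0772). With array weights, Ccl28, Il27 and Cxcl12 passed (limma adjusted p = 0.0444, 0.0448 and 0.0468), where 7.58% of all probes did, and with arrays scaled to the same spread Ccl27a passed (0.0485), where 4.58% did. Ccl5, Ccl17, Ccl24 and Cxcl13 were negative on every array, at -0.0296 ± 0.0188, -0.0377 ± 0.0361, -0.0548 ± 0.0417 and -0.077 ± 0.102. Each had an array close to 0, at -0.00515, -0.00196, -0.00464 and -0.000957, and Cxcl13 was at -0.252 on replicate 5. Ccl20 was positive on every array, at 0.0376 ± 0.0346, with its lowest array at 0.00325. The monocyte attractant Ccl2 was between -0.00968 and -0.00104 on 4 arrays and at 0.0418 on replicate 4. Ccl8, a relative of Ccl2, had the lowest mean, -0.147 ± 0.212, from -0.35 on replicate 2 and -0.407 on replicate 4 with the other arrays at 0 or just above.

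**Figure D1:**
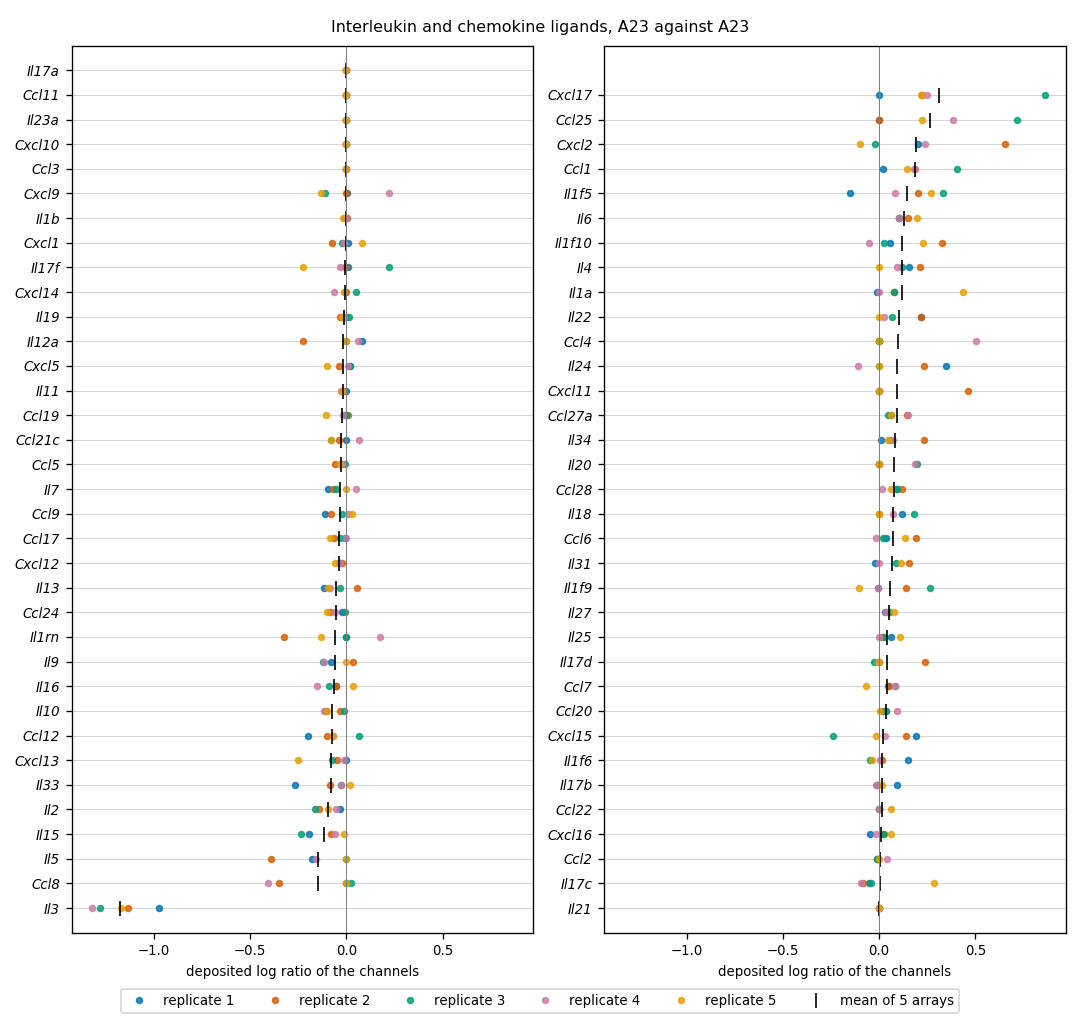
Deposited log ratio (x axis) of each of the 69 interleukin and chemokine ligand probes (y axis, ordered by mean), with a point for each of the 5 arrays and a bar for their mean. Il3 lies near -1.18 on all arrays, Il6 is positive on all, and the high means of Cxcl17, Ccl25 and Cxcl2 come with single arrays at 0.651 to 0.859.

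Among the 38 interleukin receptor probes, 22 means were negative and 15 positive, Il7r was at 0 throughout, and Il27ra was the 1 call (2.63%, against 3.42% of all probes). Il20ra, a receptor chain for interleukins 19, 20 and 24, was lowest at -0.193 ± 0.152 (SD, n = 5), with replicates 1 to 3 between -0.324 and -0.285 and replicate 4 at 0.0266. Il23r and Il12rb1, chains of the interleukin 23 receptor, showed the same layout, 0 on replicates 1, 3 and 5 and negative on replicates 2 and 4, at -0.172 and -0.274 for Il23r and -0.195 and -0.233 for Il12rb1. Such zeros were not particular to them. All 6 members at 0 on 3 arrays were at 0 on replicates 1 and 5, and Cxcr6 was at 0 on replicate 3 as well. Il1rapl1, a relative of the interleukin 1 receptor known from synapses, ran from -0.318 on replicate 1 to 0.0351 on replicate 4. Il4ra, shared by interleukins 4 and 13, was negative on every array between -0.153 and -0.0204 (mean -0.0768 ± 0.0521, limma adjusted p = 0.11).

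Positive receptor means were led by Il5ra, the interleukin 5 chain of eosinophils, which was at 0 on 3 arrays, at 0.943 on replicate 3 and at 0.394 on replicate 4. Its SD of 0.414 was the largest of all members. Il18rap, the accessory chain of the interleukin 18 receptor, was the only receptor probe positive on every array, with 0.145, 0.126, 0.324, 0.0572 and 0.353 and a mean of 0.201 ± 0.13 (limma adjusted p = 0.0975). Il18bp, which belongs to neither side, had the highest mean of all members, 0.369 ± 0.37, from 0.859, 0.536 and 0.452 on replicates 2, 3 and 4 and an exact 0 on the other arrays (limma adjusted p = 0.192).

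None of the 15 chemokine receptor probes passed in limma, where 1 (6.67%) had an unadjusted p under 0.05, against 3.42% and 27.3% of all probes. That 1 probe was for Cxcr4, the receptor of Cxcl12 on migrating blood and progenitor cells, at -0.0401, -0.0464, -0.0332, -0.00531 and -0.0588. Each array was negative, and the mean of -0.0368 ± 0.0199 (SD, n = 5; limma adjusted p = 0.106) was close to that of its ligand. Cxcr3, the receptor of Cxcl9 to Cxcl11 on T cells, had the lowest mean, -0.215 ± 0.364, of which replicate 5 at -0.828 was the main part. Ccr1, Ccr4 and Cxcr6 had the highest means, 0.109, 0.0813 and 0.0949, with spreads of 0.155, 0.203 and 0.211 that were larger. Cxcr6 owed its mean to 0.473 on replicate 4, the other arrays being at 0 or 0.00156.

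**Figure D2:**
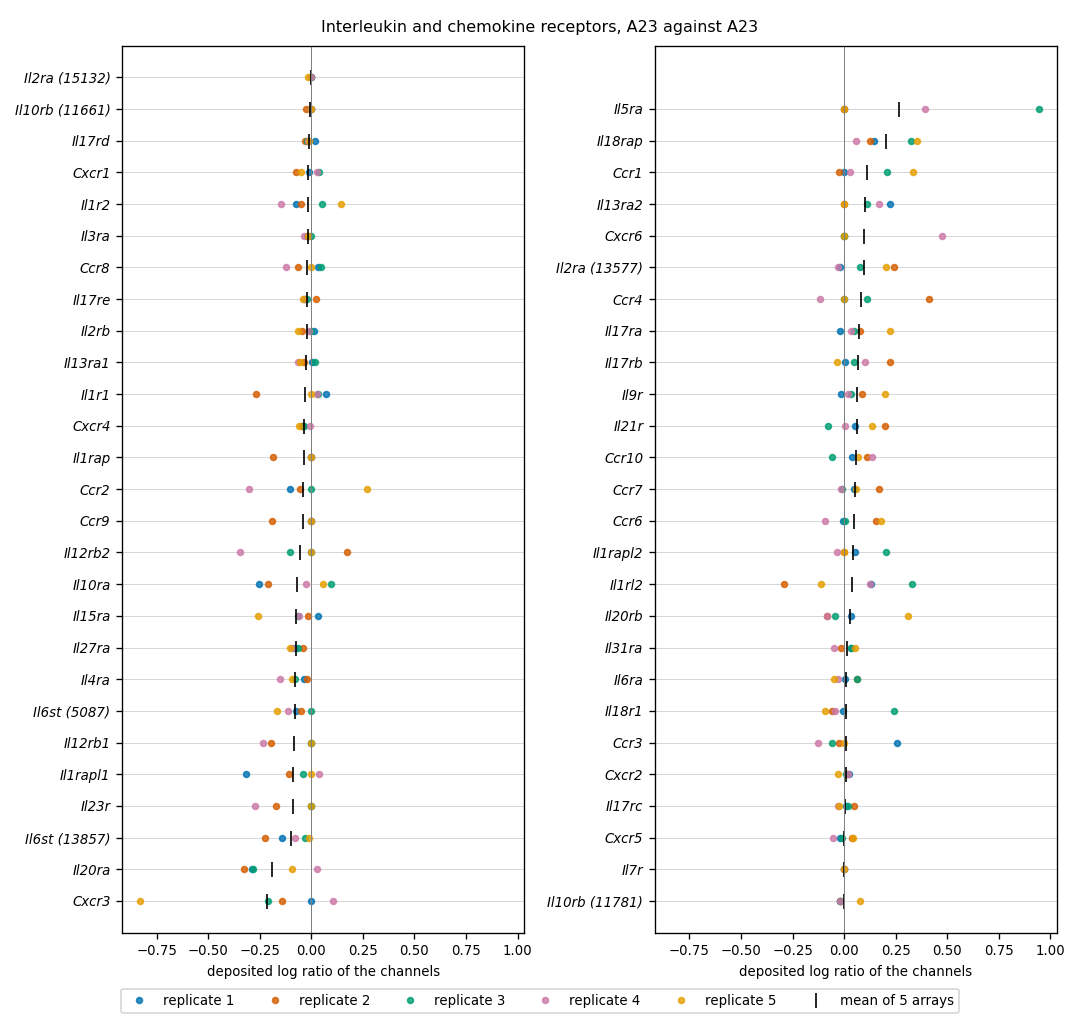
Deposited log ratio (x axis) of each of the 53 receptor probes (y axis, ordered by mean), with a point per array and a bar for the mean of 5 arrays. Il27ra, both Il6st probes, Il4ra and Cxcr4 have all points below 0 (some barely), Il18rap all above, and Cxcr3 and Il5ra each have an array beyond 0.8.

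The interleukin 6 and 27 systems share the signalling chain gp130 (Il6st) and held 2 of the 3 calls. Of the 7 probes of these systems and of Il11, Il6 passed as positive and Il27ra as negative, where 3.42% of all probes passed. Among the 7, 5 had 1 sign on all arrays and none was listed at 0, where 26.4% of all probes had 1 sign and 25.7% held a 0. The ligands Il6 and Il27 were positive on every array and the chains Il6st and Il27ra negative on every array. Il6st was barely negative on replicate 3 for feature 5087 (-0.000269) and close to 0 on replicate 5 for feature 13857 (-0.00888). Members of 1 system thus stood on opposite sides of 0. This did not divide ligands from receptors, since Ebi3, the other subunit of interleukin 27, and Clcf1, another cytokine that signals through gp130, were also negative on every array (Ebi3 barely so on replicate 5), at -0.274 ± 0.261 and -0.0527 ± 0.022 (SD, n = 5; limma adjusted p = 0.178 and 0.0676). The related receptor chain Cntfr was negative on every array, at -0.0339 ± 0.0148 (limma adjusted p = 0.0931). Osm and Lifr had both signs, and Osmr was at 0 on 3 arrays and negative on the others. Il6ra, the interleukin 6 specific chain, went both ways, from -0.0483 to 0.0634. Il11, which also signals through gp130, had one of the smallest spreads, -0.0179 ± 0.0111 (SD, n = 5). This grouping of 7 probes was made with the ratios of the study known, and its share of calls supports nothing by itself.

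**Figure D3:**
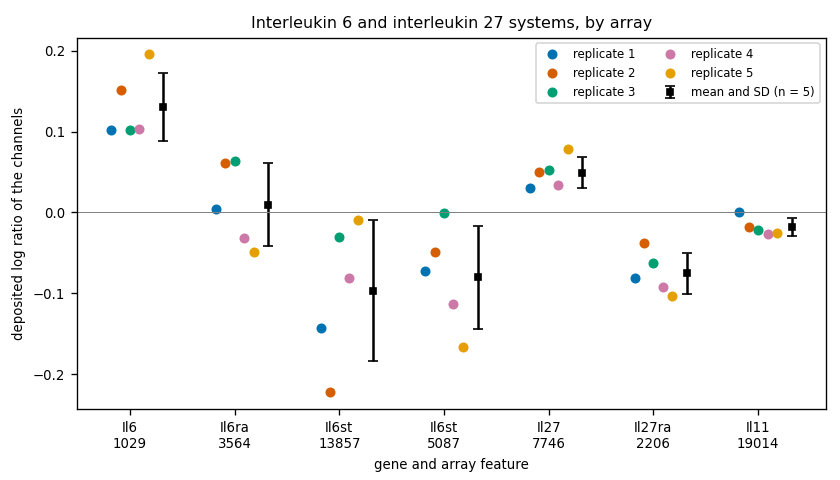
Deposited log ratio (y axis) of the 7 probes of the interleukin 6, 11 and 27 systems (x axis, gene and feature number), with 5 arrays as points and the mean with its SD as a square. Il6 and Il27 lie above 0 on all arrays, and Il27ra and both Il6st probes lie below 0 on all arrays, each Il6st probe with a point close to 0.

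Means of the other systems went 1 way in some and both ways in others. The 4 interleukin 18 probes (Il18, Il18r1, Il18rap and Il18bp) all had positive means with a median of 0.137. In limma 0 passed and 1, Il18rap, had an unadjusted p under 0.05, against 3.42% and 27.3% of all probes. Il18r1, however, was negative on 4 arrays, and its mean of 0.0087 rested on 0.243 on replicate 3. With an array left out its mean went as low as -0.0499. The interleukin 12 and 23 group had 4 negative means and 1 at 0. In limma 0 passed or had an unadjusted p under 0.05, against 3.42% and 27.3% of all probes. In that group 2 probes had both signs over the arrays. The common beta chain group set Il3 at -1.18 beside its receptor chain Il3ra at -0.0175 ± 0.0133 (SD, n = 5), and Il5 at -0.145 beside Il5ra at 0.267. In the common gamma chain group, 0 of 14 probes passed in limma (4, or 28.6%, had an unadjusted p under 0.05, against 27.3% of all probes), 8 means were negative, 4 positive and 2 at 0. Every one of the 5 interleukin 12 and 23 probes was listed at 0 on at least 1 array, against 25.7% of all probes. Of their values 60% were exactly 0, against 11.5% over all probes. Among the 6 interleukin 1 probes, 5 had both signs over the arrays, and the signalling receptor Il1r1 was at -0.269 on replicate 2 and between 0 and 0.0694 on the others. Of the 11 interleukin 17 probes 0 passed in limma, and 0 had an unadjusted p under 0.05, against 3.42% and 27.3% of all probes. Il25, the relative that promotes type 2 responses, was the only 1 of the 11 with 1 sign on all arrays.

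Genes with 2 probes allowed a comparison within a gene. Both Il6st probes were negative on all arrays, at -0.097 ± 0.0871 and -0.0804 ± 0.0632 (SD, n = 5), with limma adjusted p-values of 0.167 and 0.137. The array closest to 0 was at -0.00888 for the first and -0.000269 for the second. The arrays of the 2 probes were ordered differently, however, with replicate 2 lowest for the first and replicate 5 lowest for the second. The Il2ra probes gave 0.0944 ± 0.124 and -0.00348 ± 0.00778, the latter at 0 on 4 arrays. The Il10rb probes gave -0.000543 ± 0.043 and -0.00488 ± 0.0109, the latter also at 0 on 4 arrays. A small spread in the second probe of Il2ra and of Il10rb thus went with exact zeros.

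Exact zeros were frequent in these genes. Of the 123 probes, 45 (36.6%) were listed at 0 on at least 1 array, against 25.7% of all probes, and 7 (5.69%) on all 5 arrays, against 1.97%. The 7 were the ligands Il17a, Il21, Il23a, Ccl3, Ccl11 and Cxcl10 and the receptor Il7r, which maintains naive T cells. Zeros on 4 arrays were found for Ccl22, Cxcl11, Ccr9, Il1rap and a probe each of Il2ra and Il10rb. By role the share with any zero was 34.8% for ligands and 37.7% for receptors, with 8 of 15 among chemokine receptors. It was higher than over all probes on each array, from 10.6% against 6.43% on replicate 4 to 29.3% against 20.8% on replicate 5. On replicate 1 it was 23.6% against 9.57%.

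Zeros were also counted by the cells in which a member is known. Of 30 probes for members known from fibroblasts, 5 (16.7%) had a zero on any array, namely Il18, Il1r1, Il1rap, Ccl11 and 1 Il10rb probe. Of 44 probes for members known mainly from leukocytes, 24 (54.5%) did, and the remaining 49 probes had 32.7%. Both lists rest on textbook knowledge and were written with earlier results of these data known. The separate cell type markers differed much less, with a zero on any array for 27.3% of leukocyte and 20% of fibroblast marker probes. The sources used here do not say why a value is listed as 0, and its relation to signal strength was not tested.

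**Figure D4:**
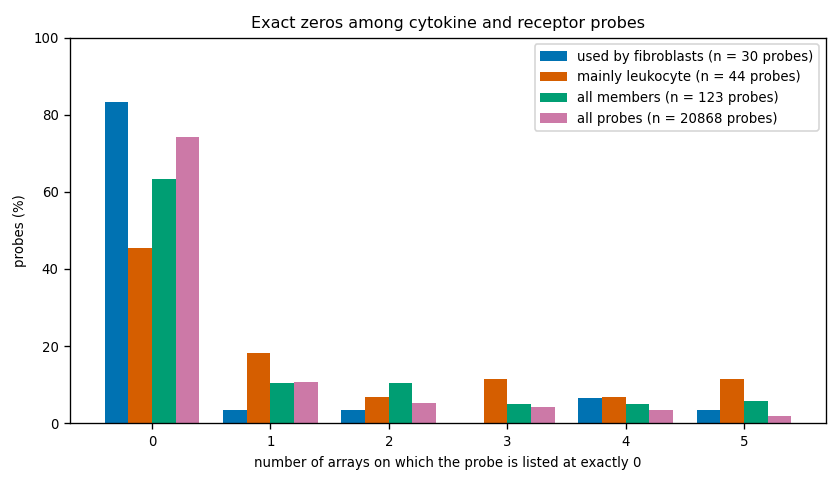
Share of probes in percent (y axis) by the number of arrays on which they are listed at exactly 0 (x axis), for members used by fibroblasts, members used mainly by leukocytes, all 123 members and all 20868 probes. No zero on any array was seen for 83.3% of the fibroblast list and 45.5% of the leukocyte list.

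The between-array SD had a median of 0.0794 over the members, beside 0.0588 over all probes. By role the median was 0.0793 for interleukin ligands, 0.0928 for interleukin receptors and 0.0854 for chemokine receptors, while for chemokine ligands it was 0.0545, below that of all probes. The chemokine ligands included 3 probes (9.38%) with an SD of 0 from zeros alone, against 1.97% of all probes. The fibroblast list had a median SD of 0.0523 and the leukocyte list 0.0844, the latter including 5 probes with an SD of 0 from zeros alone. Apart from probes at 0 on 4 or 5 arrays, the steadiest members were Il1b, Il11, Il3ra, Cxcl12 and Il19, with SDs from 0.0076 to 0.0177. The least steady were Il5ra, Il18bp, Cxcr3, Cxcl17 and Ccl25, with SDs of 0.299 to 0.414.

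For the purpose the design text names, the spread was turned into the smallest ratio that 5 arrays would detect, 1.68 times the SD at a power of 0.8, testing each probe alone against 0 on both sides at the 0.05 level. The adjustment over all probes, which asks for more, is not in this value. Under the log10 reading its median was 1.4-fold over the 116 members with an SD above 0, against 1.26-fold over all probes, and under the log2 reading 1.11-fold against 1.07-fold. A 2-fold ratio was within reach for 98 of the 116 members (84.5%) and for 90% of all probes if the values are log10, and for all 116 if they are log2. These counts include probes whose spread is small because most of their arrays were listed at exactly 0. Of the 6 members at 0 on 4 arrays, 5 count as within reach under the log10 reading. For such probes the value is no measure of precision. Under the log10 reading, the fibroblast list had a median of 1.23-fold and 28 of 29 probes within reach of 2-fold, and the leukocyte list 1.52-fold and 32 of 39. On the same reading and in the plain test, Il1b and Cxcl12 would show 1.03-fold and 1.06-fold, while Cxcl2, Il18bp and Il5ra would need 3.12-fold, 4.19-fold and 4.98-fold. As log2, the latter values are 1.41-fold, 1.54-fold and 1.62-fold.

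**Figure D5:**
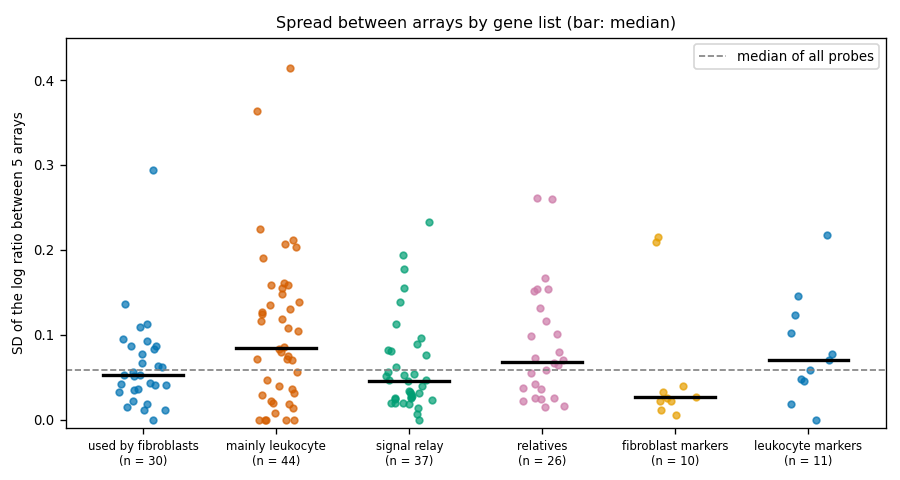
Between-array SD of the log ratio (y axis, 5 arrays) for each probe of 6 gene lists (x axis), with a bar at each median and a dashed line at 0.0588, the median of all probes. Fibroblast markers sit lowest with a median of 0.026, the fibroblast-used members have 0.0523 and the leukocyte members 0.0844, with points up to 0.414.

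Single arrays contributed unequally. Beyond 2-fold, if log10, lay 3, 10, 9, 8 and 6 members on replicates 1 to 5, Il3 being among them on each, which is 2.44%, 8.13%, 7.32%, 6.5% and 4.88% against 3.37%, 8.47%, 3.07%, 3.68% and 2.96% of all probes. On replicate 3, 8 of the 9 were positive and 1, Il3, was negative. Across the 123 probes, Pearson's r between pairs of arrays had a median of 0.513 (0.401 to 0.671), and without Il3 0.243 (-0.0044 to 0.475), beside 0.368 across all probes. These correlations are across probes of the same arrays, which are not independent. Of the members, 23 (18.7%) had 1 sign on all 5 arrays, 17 ligands and 6 receptors, against 26.4% of all probes.

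Genes downstream of these receptors were set beside them. Of 37 probes for 33 signal relay genes (kinases, STAT factors, inhibitors, adaptors and G protein parts), 2 (5.41%) passed in limma, both negative, against 3.42% of all probes, 2% of them negative. At an unadjusted p of 0.05 the list had 12 probes, or 32.4%, against 27.3%. Irak1, a kinase of the interleukin 1 receptor pathway, had -0.0918 ± 0.0257 (SD, n = 5; limma adjusted p = 0.0398) and Arrb2, an arrestin that silences chemokine receptors, -0.0671 ± 0.0193 (limma adjusted p = 0.0472). Cish, a feedback inhibitor of STAT5 signalling, had the lowest mean of the list, -0.204 ± 0.0825, and a limma adjusted p of 0.0502. The list's median was 0.0195, with 25 positive and 11 negative means. Of 26 probes for 25 related cytokines and receptors outside the name rule, such as Cx3cl1, Lif receptor and Csf2 genes, 0 passed in limma and 6 (23.1%) had an unadjusted p under 0.05. Ebi3 had the lowest mean.

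Markers of leukocytes and of fibroblasts showed no called ratio in limma, in 11 and 10 probes, where 3.42% of all probes passed. Of the markers 3 and 4 (27.3% and 40%) had an unadjusted p under 0.05, against 27.3% of all probes. Leukocyte marker means ran from -0.123 for Itgam to 0.15 for Cd4. Of these 11 probes 3 held an exact 0 (27.3%), namely Cd4, Cd8a and the pan-leukocyte gene Ptprc, the latter on all 5 arrays. Fibroblast marker means ran from -0.129 for Thy1 to 0.153 for Lox, and these 2 of the 10 probes (20%) held a 0. Both shares were near or below the 25.7% of all probes. The part of cell type in the cytokine ratios was not tested.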

How the data were processed

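The authors deposited 1 log ratio of the channels per probe and array, with array medians of exactly 0, here read as log10 by assumption and as log2 in the alternative. The base, the numerator, image quantification, background correction and dye normalization are not given in the sources used here. Per the labels' protocols, 20 µg of total RNA was directly labelled. The table has 0 value columns outside the series. Symbols are mouse gene names of the platform annotation, and 17786 probes had exactly 1. No genome was used, so no position is given. Ratios were fitted with limma 3.58.1 in R 4.3.3 (lmFit with an intercept, eBayes), testing each mean against 0 over 5 arrays, with Benjamini-Hochberg adjustment over all 20868 probes and a threshold of 0.05. No filter or pseudocount was used. The fit was tested on simulated data. Alternatives were centring, scaling, quantile normalization, robust fits, array weights, a plain one-sample test, other treatments of exact zeros, averaging probes of a symbol and leaving out each array. Named singly were called members, the 10 highest and 10 lowest means, the 5 largest and 5 smallest SDs, probes at 0 on 4 or 5 arrays, genes with several probes, and members of listed interleukin systems and chemokine ligand-receptor pairs (such as Ccl20 with Ccr6). Il34 and Cxcl15 lie outside these rules and were named for their values. Members and lists were chosen with earlier results of these data known. Counts are therefore descriptions, set beside the share over all probes.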

Additional observations from a re-analysis of the deposited data

Results flagged for a closer look

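For 19 of the 116 member probes with any spread (16.4%), a single array stood apart from the other 4, its gap to the nearest exceeding 0.71 of the whole range (Dixon's 95% limit). Chance would give this for about 1 in 20 groups of normal values, and 14.2% of all probes met it. Replicates 2 and 5 were the outlying array 7 times each, replicate 4 3 times and replicates 1 and 3 once each. On replicate 1 it was Il17b at 0.095. On replicate 2 the low values were Il1r1 at -0.269, Il12a at -0.225, Ccr9 at -0.191, Il1rap at -0.185 and 1 Il10rb probe at -0.0244, and the high ones Il17d at 0.236 and Cxcl11 at 0.461. On replicate 3 it was Il18r1 at 0.243. On replicate 4 Ccl2 was at 0.0418, Cxcr6 at 0.473 and Ccl4 at 0.502. On replicate 5 Ccl19 was at -0.106, Ccl7 at -0.0669 and 1 Il2ra probe at -0.0174, below the others, and Ccl22 at 0.0639, the other Il10rb probe at 0.0764, Il17c at 0.283 and Il1a at 0.437, above them. For Ccr9, Il1rap, Cxcl11, Ccl22 and the named first probe of Il10rb and that of Il2ra, the other 4 arrays were all listed at exactly 0, so any other value stands apart there.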

How the results depend on the processing

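The 3 member calls (2 ligands, 1 receptor) became 17 with robust regression (12 and 5), where 19.4% of all probes passed. With array weights they became 6 (5 and 1), where 7.58% of all probes passed. They became 1 with the plain one-sample test and 1 with robust eBayes, Il3 in both cases, with 1 ligand and 0 receptors. Of all 20868 probes, 423 and 250 passed in these, against 713 in the planned fit. Receptor calls were also 0 with exact zeros as missing values (578 of all 18873 tested passed) and with probes of a symbol averaged (499 of all 19586 tested). These settings had 6 to 8 receptors at an unadjusted p of 0.05. Leaving out 1 array gave 0 to 1 member calls, 0 to 1 ligand calls and 0 receptor calls, with 16 to 24 members at an unadjusted p of 0.05 in limma. The loss was general, since calls over all 20868 probes fell from 713 to between 4 and 63. The member call that remained was Il3, without replicate 1 or 5. Il3 passed in the 10 settings that kept all arrays. Centring, scaling, quantile normalization and leaving out probes with a zero gave 3 to 4 member calls. Over all 20868 probes, 713, 956 and 529 passed with centring, scaling and quantile normalization. Without probes that held a zero, 1325 of 15507 passed. No call changed sign, but of the 116 probe means other than 0, 36 changed sign or became 0 under at least 1 of 15 settings, 30 of them to the opposite sign. The fold of Il3 was 15 as log10 and 2.26 as log2. No paired analysis was possible because all arrays form 1 group. Intensities were not used here, so what dim signal limits is unknown.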

Other observations

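Of the 123 probes, 93 had a symbol that also names a gene, or a synonym, in the RefSeq annotation of the Chinese hamster assembly CriGri-PICRH-1.0. Il3 was among the other 30. Among other named probes, a zero on any array was listed for 21.1% of those with a hamster gene of the same name and 33.1% of those without, whereas among the cytokine and receptor probes it was 37.6% and 33.3%. A symbol that was not matched by name does not show that the hamster lacks the gene.

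The array with the highest value of a probe was replicate 3 for 35 of the 116 members with any spread and replicate 4 for 19, and the array with the lowest was replicate 3 for 14 and replicates 4 and 5 for 34 each, shared extremes counted for each array. Replicate 3 was also the array with the largest weight in limma, 2.29, and replicate 5 that with the smallest, 0.565.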
